A study of Homo sapiens with 2 samples.

Results

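Expression of 10 imprinted genes was examined in REH and 697, human cell lines of acute lymphoblastic leukemia (ALL) of B-cell precursor (BCP) origin. The genes were H19, IGF2, KCNQ1OT1, CDKN1C, MEG3, DLK1, PEG3, PEG10, SNRPN and MEST. They were listed by name as imprinted genes, and each symbol was matched to 1 of the 57773 gene IDs in the data. REH is a BCP-ALL line with the ETV6/RUNX1 fusion gene, and its other ETV6 allele is lost. 697 is a BCP-ALL line without that fusion. Both lines were grown in the same serum-supplemented medium, and the labels name no drug, knockdown or time course. Total RNA of each line was sequenced in 1 library, so no spread between cultures could be had, no p-value is given, and every difference is between these libraries.

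Imprinted genes are transcribed mainly or only from the copy inherited from one parent. They lie in clusters, and a DNA stretch methylated on a single parental copy sets which copy is read across a cluster. Paternally expressed genes often favour growth, as does the fetal growth factor IGF2, and maternally expressed genes often restrain it, as does the cell cycle inhibitor CDKN1C. Several clusters hold a long non-coding RNA (lncRNA) such as H19, KCNQ1OT1 or MEG3, of which KCNQ1OT1 silences its neighbours on the chromosome it is transcribed from. Of the 10 genes, H19, MEG3 and CDKN1C are known as maternally expressed and the other 7 as paternally expressed. The counts hold no allele information, so they show how much RNA was present and not which parental copy gave it.

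Promoters at such clusters are often rich in the CG dinucleotide, the site of DNA methylation. Windows of 250 bases upstream of a RefSeq transcript start (GRCh38.p14) were at hand for 4 of the 10 genes, namely H19, MEG3, SNRPN and MEST, with 13 windows in all. The median window among 35116 in the genome held 11 CG, and the middle part of the distribution ran from 3 to 23. For MEST, MEG3 and SNRPN the window with most CG outside annotated exons is shown, without the exonic bases, since these genes span the range seen here from 0 reads in both lines to a middle level in 1 line. Every CG is in capitals.
MEST, chr7:130491835-130492084, plus strand: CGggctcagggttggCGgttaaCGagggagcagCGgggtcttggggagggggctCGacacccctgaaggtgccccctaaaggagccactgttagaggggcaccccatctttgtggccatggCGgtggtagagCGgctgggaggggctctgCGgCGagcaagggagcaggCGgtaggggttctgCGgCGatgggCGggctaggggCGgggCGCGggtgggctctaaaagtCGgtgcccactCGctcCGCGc
MEG3, chr14:100825858-100826097, plus strand: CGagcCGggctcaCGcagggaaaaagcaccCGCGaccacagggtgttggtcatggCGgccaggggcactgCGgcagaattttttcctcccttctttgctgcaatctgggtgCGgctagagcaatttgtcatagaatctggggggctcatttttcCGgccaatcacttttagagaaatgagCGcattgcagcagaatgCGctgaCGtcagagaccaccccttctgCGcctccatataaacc
SNRPN, chr15:24954737-24954934, plus strand: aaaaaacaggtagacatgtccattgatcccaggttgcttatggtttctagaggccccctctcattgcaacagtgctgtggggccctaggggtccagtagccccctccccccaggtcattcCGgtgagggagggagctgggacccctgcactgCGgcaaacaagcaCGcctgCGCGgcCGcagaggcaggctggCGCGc
The MEST stretch held 20 CG in 250 bases, the MEG3 stretch 13 in 240 bases and the SNRPN stretch 8 in 198 bases. The full SNRPN window ended directly before the annotated start of SNURF and held 12 CG. The only H19 window lay wholly within annotated exons and held 4 CG. The motif TGCCGC, known as the recognition sequence of the imprint maintenance factor ZFP57 when its CG is methylated, was searched on both strands and occurred in 12.75% of all windows. It was found at 2 places in the full SNRPN window and at 1 in the MEG3 window, and the MEST window shown held 0. Another MEST window (chr7:130486097-130486346), wholly within annotated exons, and another SNRPN window (chr15:24956050-24956299) held 1 each. A match of these letters describes the sequence alone. Methylation was not measured.

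The REH library held 63954817 reads, of which 45188375 were counted in genes. In 697, 41097497 of 58948890 reads were counted in genes. Levels are given as CPM, reads of a gene per 1000000 reads in genes, after TMM scaling of the totals, with a 95% Wilson interval. The log2 ratio is REH over 697 with 0.5 reads added to each count, and its 95% counting interval is exact (Clopper-Pearson). Intervals cover counting error only. A count of 3 reads, taken as the smallest level this depth can show, equals 0.0597 CPM for REH and 0.0812 CPM for 697. B-cell precursor markers were present, with 10 of 10 passing the read minimum used below and a summed level of 4327 CPM in REH and 7790 CPM in 697. Among them VPREB1, part of the surrogate light chain of precursor B cells, had 3 reads in REH and 10039 in 697, and CD79B, part of the B-cell receptor, had 24198 and 4443, a log2 ratio just past the threshold (interval 1.95 to 2.05). The other 8 lay within that threshold, which is given below. Of 5 T cell markers 2 passed the minimum, with a summed level of 1.21 CPM in REH and 0.0271 CPM in 697, namely CD3E with 45 and 0 reads and TRAT1 with 14 and 0, both past the threshold. CD3G had 2 reads in REH and 1 in 697, and CD3D and CD2 were at 0 in both. Of 5 stromal markers 2 passed, summing to 33.3 and 64.7 CPM. PDGFRB had 1197 reads in REH and 2005 in 697 and COL1A1 had 477 and 387, while DCN had 1 and 0 and the collagen genes COL1A2 and COL3A1 were at 0 in both. The 5 myeloid markers, of which 3 passed, summed to 253 CPM in REH and 2.25 CPM in 697. MPO, with 12643 and 12 reads, gave nearly all of the sum in REH, and CSF1R, with 30 and 61 reads, gave most of it in 697. CD14 had 29 and 8 reads, LYZ had 1 and 2, and the protease gene ELANE was at 0 in both. The part of these differences in the results that follow was not tested.

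Of the 10 imprinted genes, 5 had at least 10 reads in a library, the minimum for a comparison, and 5 did not. With a log2 ratio of 2 in size as the threshold, PEG10 and MEST were higher in REH, CDKN1C was higher in 697, and KCNQ1OT1 and SNRPN lay within the threshold. Among all 19145 genes compared, REH was higher for 12.5% and 697 for 8.15%. The median log2 ratio of the 5 genes was 0.80, beside 0.05 for all genes compared. That median rests on few genes, of which PEG10 and MEST had under 10 reads in 697 and entered the comparison through REH. The median went to -0.41 when genes with as little as 1 read were included. The genes under the minimum were IGF2, MEG3, DLK1, H19 and PEG3.

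**Figure D1:**
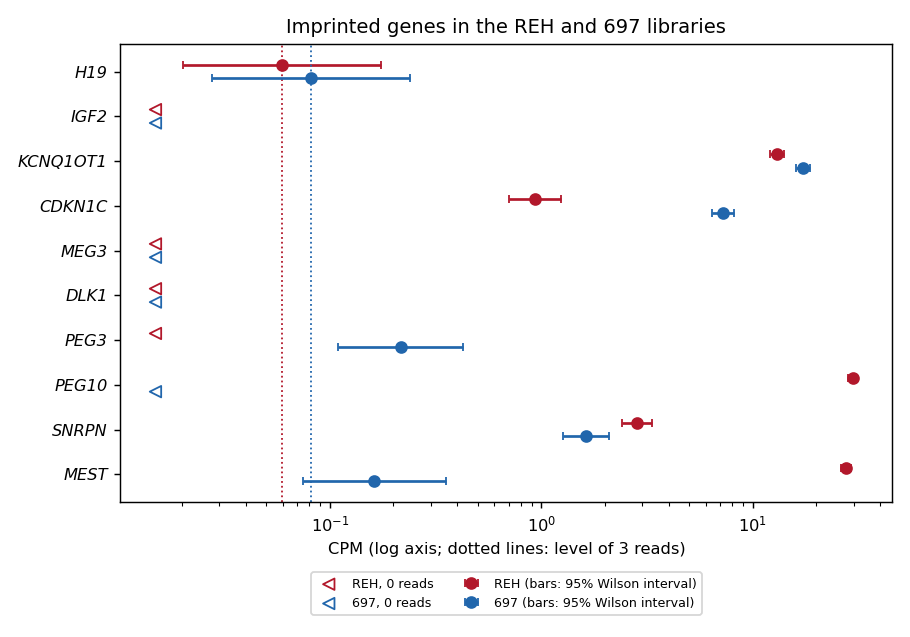
Level of each of the 10 imprinted genes in the REH library (red) and the 697 library (blue), in CPM on a log axis, with 95% Wilson intervals as bars, triangles for 0 reads and dotted lines at the level of 3 reads. PEG10 (29.7 CPM) and MEST (27.6 CPM) in REH stand highest, whereas IGF2, MEG3 and DLK1 had 0 reads in both lines.

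The growth ligands and the lncRNAs of their clusters were at or near 0 in both lines. IGF2 (ENSG00000167244, chromosome 11, 2129112 to 2158391, minus strand), a fetal growth factor that signals through IGF1R and INSR, had 0 reads in REH and 0 in 697. At these depths, the Wilson interval for 0 reads reaches up to 0.0764 CPM in REH and 0.104 CPM in 697. H19 (ENSG00000130600, chromosome 11, 1995166 to 2004552, minus strand), the lncRNA that shares enhancers with IGF2, had 3 reads in each library, or 0.0597 CPM (interval 0.0203 to 0.176) in REH and 0.0812 CPM (0.0276 to 0.239) in 697. Its log2 ratio interval ran from -3.34 to 2.46, so a difference was not detectable at this depth. The overlapping genes IGF2-AS and INS-IGF2 and the insulin gene INS were at 0 in both lines, as was MIR483, a microRNA gene within IGF2. The neighbour MRPL23, a mitochondrial ribosomal protein gene 10.6 kb from H19, had 1695 reads in REH and 1769 in 697. Reads were therefore present next to this cluster, at 33.7 and 47.9 CPM, while the cluster itself gave almost none.

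The receptors of IGF2 were present although the ligand was not. IGF1R, the signalling receptor, had 5235 reads (104 CPM) in REH and 2921 (79.1 CPM) in 697. INSR reached 206 and 190 CPM. IGF2R, which is imprinted in mice and takes IGF2 up for degradation, had 18182 reads in REH and 9078 in 697. Its level of 362 CPM in REH exceeded the 246 CPM in 697 at a log2 ratio of 0.56 (interval 0.52 to 0.59), within the threshold. IGF1, the related ligand, was at 0 in both. Of the 13 genes listed for IGF2 receptors and binding proteins, 9 were compared, 2 were higher in REH, 0 were higher in 697, and their median log2 ratio was 0.49. The share higher in REH was 22.2%, beside 12.5% of all genes compared, and 8.15% of all genes were higher in 697. Both that passed bind RNA rather than the protein. IGF2BP1, which binds IGF2 mRNA among other transcripts, had 26904 reads in REH and 6 in 697, and IGF2BP2 had 538 and 66. The third family member, IGF2BP3, had 3021 reads in REH and 1582 in 697 (a log2 ratio of 0.49). Among the secreted binding proteins, IGFBP4 had 53.8 CPM in REH and 167 CPM in 697 (a log2 ratio of -1.64), and IGFBP2 75.2 and 154 CPM (-1.03). IGFBP6 had 34 and 7 reads (1.76, and past the threshold at 2.06 without TMM scaling), IGFBP5 had 4 and 0, and IGFBP1 and IGFBP3 were at 0 in both. IGF2BP1 and IGFBP6 had under 10 reads in 697 and entered the comparison through REH, where they were high. The share and the median of this list rest in part on them.

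DLK1 (ENSG00000185559, chromosome 14, 100725705 to 100738224, plus strand), a membrane protein of the Delta-like family that keeps progenitor cells from differentiating, had 0 reads in both libraries. MEG3 (ENSG00000214548, chromosome 14, 100779410 to 100861031, plus strand), the lncRNA downstream of DLK1, was also at 0 in both. The rest of this cluster was nearly empty too. RTL1, a retrotransposon-derived gene, had 1 read in REH and 0 in 697, DIO3, a thyroid hormone deiodinase, had 2 and 0, and MEG8 was at 0. The small nucleolar RNA genes of the cluster, 9 of the SNORD113 and 30 of the SNORD114 group, had 0 reads in either library, although libraries of long RNA can miss small RNAs. MEG9, a further lncRNA there, was the exception, with 22 reads in REH and 19 in 697 (a log2 ratio of -0.24, with an interval of -1.19 to 0.73, and of 0.07 without TMM scaling). The DLK1 relative DLK2, not known as imprinted, had 168 reads in REH and 48 in 697 (a log2 ratio of 1.35).

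KCNQ1OT1 (ENSG00000269821, chromosome 11, 2597308 to 2700003, minus strand) was the only lncRNA of the 10 with reads in quantity. It had 656 reads in REH and 640 in 697. This gave 13.1 CPM (interval 12.1 to 14.1) and 17.3 CPM (16.0 to 18.7), a log2 ratio of -0.41 (-0.57 to -0.25) that is within the threshold and shrank to -0.10 without TMM scaling. As its annotated exon covers 92.6 kb, the level per length was low, at 0.141 CPM per kb in REH and 0.187 in 697. That placed it at percentile 6.93 and 6.84 of protein-coding genes with at least 10 reads in the respective library. The reads were divided between the strands, 335 and 321 in REH and 304 and 336 in 697. It lies inside KCNQ1, a potassium channel gene read in the opposite direction, and unstranded reads from KCNQ1 introns would be counted with it. KCNQ1 exons had 3 reads in REH and 1 in 697.

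CDKN1C (ENSG00000129757, chromosome 11, 2883213 to 2885775, minus strand), which encodes the CDK inhibitor p57 and belongs to the same cluster, was lower in REH. It had 47 reads in REH, or 0.935 CPM (interval 0.703 to 1.24), and 268 in 697, or 7.25 CPM (6.44 to 8.18). The intervals did not overlap, and the log2 ratio of -2.94 (-3.44 to -2.50) corresponded to a 7.69-fold higher level in 697. No annotated exon of another gene overlaps CDKN1C. Per kb of exon it stood at percentile 13.9 of protein-coding genes in REH and 32.7 in 697. SLC22A18, a transporter gene 13.9 kb away that is also maternally expressed, had 515 reads in REH and 358 in 697. At 10.3 and 9.69 CPM it did not share the difference (a log2 ratio of 0.08, with an interval of -0.12 to 0.28). PHLDA2, a maternally expressed growth restrainer of the cluster, had 1 read in REH and 2 in 697.

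The other CDK inhibitors of the same family, which are not known as imprinted, were far more abundant. CDKN1A (p21) had 122 CPM in REH and 72.4 CPM in 697 (a log2 ratio of 0.75), and CDKN1B (p27) had 61.7 and 88.4 CPM (-0.52). Neither passed the threshold. Per kb of exon, the level of CDKN1C was 0.0566 of that of CDKN1B in REH and 0.306 in 697. Against CDKN1A it was 0.00926 in REH and 0.121 in 697, so CDKN1C was the least abundant of these inhibitors in both lines. Of 6 listed relatives of the 10 genes, 4 were compared (CDKN1A, CDKN1B, SNRPB and DLK2), none passed the threshold in either direction (0 and 0), and their median log2 ratio was 0.12. Most genes did not pass it either, as 12.5% of all genes compared were higher in REH and 8.15% higher in 697.

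**Figure D2:**
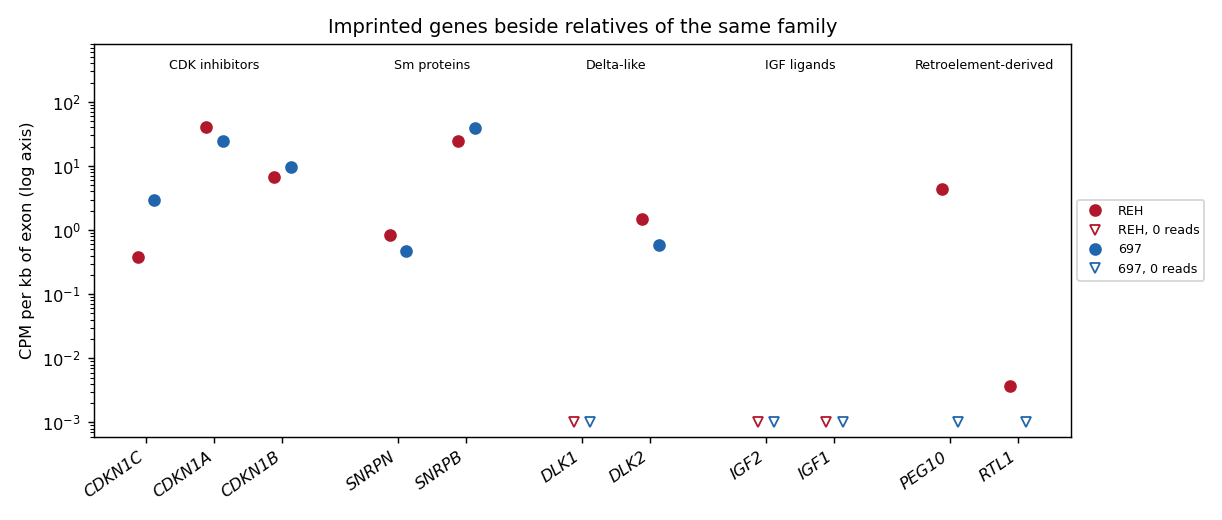
CPM per kb of annotated exon, on a log axis, for CDKN1C, SNRPN, DLK1, IGF2 and PEG10 beside relatives, in REH (red) and 697 (blue), with triangles for 0 reads. RTL1, beside PEG10, is imprinted itself. CDKN1C lies under CDKN1A and CDKN1B in both lines and SNRPN lies under SNRPB, whereas DLK1 is at 0 and DLK2 is not.

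PEG10 (ENSG00000242265, chromosome 7, 94656325 to 94669695, plus strand), a retrotransposon-derived gene whose protein resembles retroviral Gag and Pol and which is needed for the placenta, had reads in REH alone. It had 1491 reads in REH, or 29.7 CPM (interval 28.2 to 31.2), and 0 in 697. The measured level of PEG10 in REH was 365-fold that of 3 reads in 697. The lower end of the counting interval, a log2 ratio of 8.21, was a smaller fold. In REH its level of 4.44 CPM per kb stood at percentile 44.6 of protein-coding genes. Reads fell on both strands, 723 and 768.

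SGCE, which encodes epsilon-sarcoglycan and is read in the opposite direction from a start next to that of PEG10, had 386 reads in REH and 3 in 697. Its level was 7.68 CPM in REH and 0.0812 CPM in 697 (a log2 ratio of 6.34, with an interval of 5.01 to 8.85). PEG10 and SGCE share 3.27% of the exon bases of PEG10, so the reads of each come almost wholly from its own exons. Per kb, PEG10 exceeded SGCE by a factor of 12.1 in REH. CASD1, a sialic acid acetyltransferase gene 99.3 kb from PEG10, had 3381 reads in REH and 2487 in 697. It showed the same level in both libraries, 67.3 CPM each (a log2 ratio of 0.00, with an interval of -0.08 to 0.07). On the other side PPP1R9A, 237.5 kb away, was at 0 in both, as was TFPI2, another gene of the cluster. The difference at this cluster was therefore measured for PEG10 and SGCE and not for CASD1.

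MEST (ENSG00000106484, chromosome 7, 130486171 to 130506465, plus strand), an enzyme of the alpha/beta-hydrolase fold expressed in mesoderm and regarded as a growth promoter, was the second gene higher in REH. It had 1386 reads in REH, or 27.6 CPM (interval 26.2 to 29.1), and 6 in 697, or 0.162 CPM (0.0744 to 0.354). The log2 ratio was 7.29 (6.28 to 8.86), a 157-fold difference. At 5.78 CPM per kb, MEST stood at percentile 51.4 of protein-coding genes in REH, the highest place among the 10 genes.

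Annotated exons of other genes cover 27.6% of the exon bases of MEST. The genes are COPG2, a coat protein gene read toward MEST, the antisense RNA gene MESTIT1 and the antisense gene ENSG00000270823. In such a stretch a read that ignores strand is ambiguous and is left out, and for MEST in REH the strand-specific counts, 851 and 885, summed to 1.25 times the 1386 reads counted without strand. With the summed strand counts the log2 ratio was 7.24. MESTIT1 itself was at 0 in both libraries. COPG2 had 1022 reads in REH and 510 in 697 (a log2 ratio of 0.56), and per kb MEST was 1.18 of COPG2 in REH and 0.0102 in 697. CEP41, a centrosomal protein gene 43.7 kb away on the other side, had 3038 and 777 reads (a log2 ratio of 1.52, with an interval of 1.41 to 1.64), within the threshold. CPA4, a carboxypeptidase gene of the same cluster, had 2 reads in REH and 0 in 697.

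An intron of MEST holds the gene of the microRNA miR-335. MIR335 had 0 reads in both libraries, and mature microRNAs, being shorter than the RNA such libraries are made from, were not measured. The 5p arm (RefSeq, GRCh38.p14, chr7:130496126-130496148, plus strand) is shown with its seed, bases 2 to 8, in capitals, because the seed is the part that pairs with target RNAs.
hsa-miR-335-5p: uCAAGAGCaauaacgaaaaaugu

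**Figure D3:**
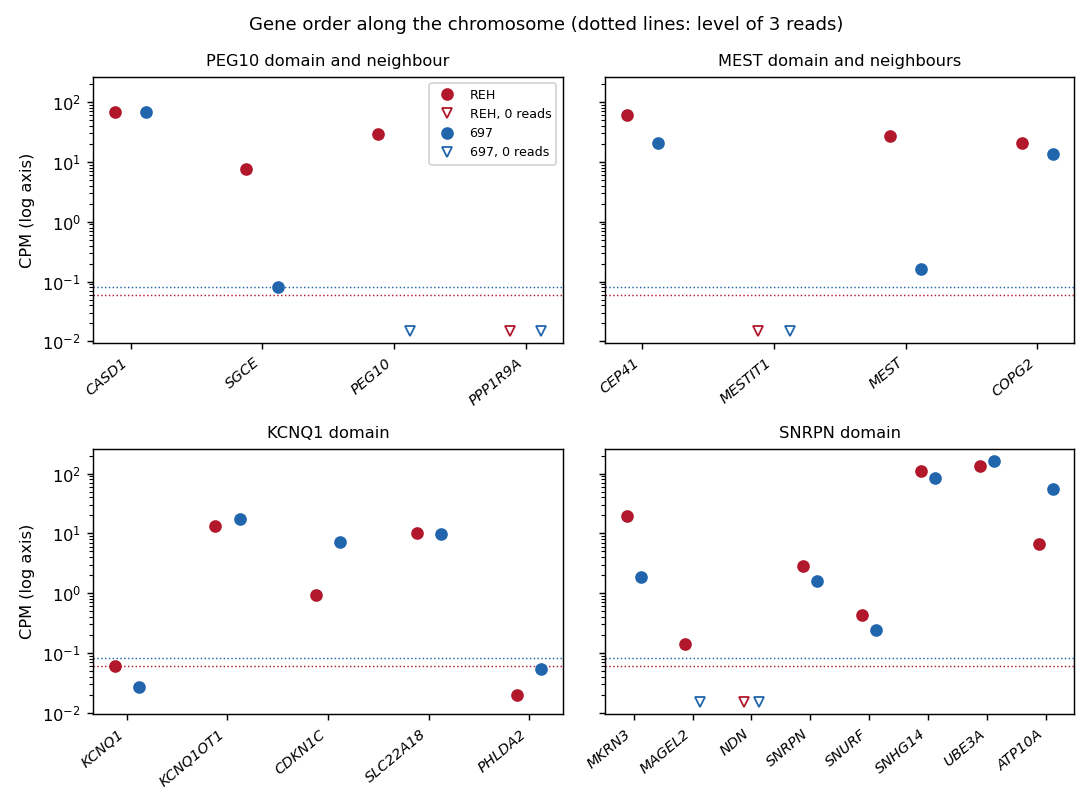
CPM on a log axis of genes in 4 imprinted clusters and of neighbours (CASD1, CEP41 and COPG2), in chromosomal order, in REH (red) and 697 (blue), with triangles for 0 reads and dotted lines at the level of 3 reads. PEG10 with SGCE, and MEST, separate the lines while CASD1 and COPG2 lie close together. CEP41, beside MEST, was higher in REH within the threshold, at 60.4 CPM against 21.0 CPM in 697. In the KCNQ1 cluster CDKN1C is apart, and in the SNRPN cluster MKRN3 and ATP10A are apart in opposite directions.

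SNRPN (ENSG00000128739, chromosome 15, 24823637 to 24978723, plus strand), which encodes the spliceosomal protein SmN and marks the Prader-Willi cluster, was detected in both lines. It had 143 reads in REH, or 2.85 CPM (interval 2.42 to 3.35), and 60 in 697, or 1.62 CPM (1.26 to 2.09). The intervals did not overlap, but the log2 ratio of 0.80 (0.36 to 1.27) lay within the threshold. The counts for SNRPN are uncertain in size, since 33.6% of its exon bases are shared with SNURF, SNHG14 and ENSG00000214265, and reads there were left out. SNURF, transcribed on the same RNA, had 22 reads in REH and 9 in 697. SNRPB, the gene of the closely related SmB proteins that are not known as imprinted, had 125 CPM in REH and 202 CPM in 697. Per kb, SNRPN was 0.0345 of SNRPB in REH and 0.0121 in 697.

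Other genes of the SNRPN cluster went different ways. MKRN3, a paternally expressed ubiquitin ligase gene that restrains the onset of puberty, had 982 reads in REH and 69 in 697 (a log2 ratio of 3.38, with an interval of 3.03 to 3.76). Exons of ENSG00000260978 cover 25.2% of its exon bases, and its summed strand counts were 1113 in REH and 81 in 697. MAGEL2, a paternally expressed gene of the MAGE family, had 7 and 0 reads, and NDN, NPAP1 and PWRN1 were at 0 in both. SNHG14, the long host transcript of the small nucleolar RNAs, had 5497 reads (109 CPM) in REH and 3168 (85.8 CPM) in 697, with a log2 ratio of 0.35. The 25 SNORD116 genes inside it had 52 reads in REH and 23 in 697 over all, and the 44 SNORD115 genes had 1 and 2. UBE3A, the ubiquitin ligase gene lost in Angelman syndrome, had 136 CPM in REH and 164 CPM in 697. Its log2 ratio of -0.27 became 0.03 without TMM scaling. UBE3A and SNHG14 overlap on opposite strands, so their unstranded counts cannot be told apart where they do. ATP10A, a phospholipid transporter gene at the far end, had 330 reads (6.57 CPM) in REH and 2064 (55.9 CPM) in 697, and its log2 ratio of -3.09 (-3.26 to -2.92) passed the threshold.

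PEG3 (ENSG00000198300, chromosome 19, 56810077 to 56840728, minus strand), a zinc finger gene linked to growth and maternal behaviour in mice, was close to 0. It had 0 reads in REH and 8 in 697, or 0.217 CPM (interval 0.110 to 0.427). The counting interval of its log2 ratio lay under -1.22, but PEG3 did not reach the minimum of 10 reads. The 8 reads were 4 on each strand. ZIM2, USP29 and MIMT1, which share its cluster, were at 0 in both lines.

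Beyond the 10 genes, 51 further imprinted genes were listed, of which 44 were matched, 23 were compared and 13 were at 0 in both libraries. Of the 23, 6 were higher in REH, 2 were higher in 697 and 15 lay within the threshold, with a median log2 ratio of 0.36. The shares were 26.1% higher in REH, beside 12.5% of all genes compared, and 8.7% higher in 697, beside 8.15%. Besides SGCE and MKRN3, the genes higher in REH were PLAGL1, NLRP2, NAP1L5 and ZNF597. PLAGL1, a zinc finger regulator of growth whose imprint is lost in transient neonatal diabetes, had 1403 reads (27.9 CPM) in REH and 1 in 697 (a log2 ratio of 9.43, with an interval of 7.53 to 15.31). Its neighbour SF3B5, a splicing factor gene 30.3 kb away, had 2669 and 2136 reads (a log2 ratio of -0.12). ZC2HC1B, 1.96 kb from PLAGL1 on the other side, had 0 reads in REH and 9 in 697, under the minimum. NLRP2, a gene of the NLR family, had 3540 reads in REH and 0 in 697. Its measured level in REH was 867-fold that of 3 reads in 697, and the lower end of the log2 interval, 9.46, was a smaller fold. NAP1L5 had 587 and 54 reads, and ZNF597 had 123 and 2. Besides ATP10A, KCNK9, a potassium channel gene, was higher in 697, with 8 reads in REH and 322 in 697 (a log2 ratio of -5.69, with an interval of -7.00 to -4.78). GNAS, which encodes the stimulatory G protein alpha subunit and is imprinted for some of its transcripts, had 931 CPM in REH and 1648 CPM in 697 (a log2 ratio of -0.82).

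The 10 genes and the further genes were also grouped by the parental copy that general knowledge lists as expressed. That listing was not checked in these lines and may not hold in them. The maternally expressed group includes IGF2R, named above as imprinted in mice. Genes whose imprint depends on the transcript, GNAS among them, were in neither group, and all of those lay within the threshold. Of 30 matched paternally expressed genes 12 were compared, with 6 higher in REH, 0 higher in 697 and a median log2 ratio of 2.08. These 6 were PEG10, MEST, SGCE, PLAGL1, MKRN3 and NAP1L5. Of 18 matched maternally expressed genes 10 were compared, with 2 higher in REH, 3 higher in 697 and a median of -0.08. The 3 higher in 697 were CDKN1C, ATP10A and KCNK9, and the 2 higher in REH were NLRP2 and ZNF597. Over all genes compared, 12.5% were higher in REH and 8.15% higher in 697. PEG10, MEST, SGCE, SNURF, PLAGL1, NLRP2 and ZNF597 had under 10 reads in 697, and KCNK9 had under 10 in REH, so they entered the comparison through the line where they were high, and the medians rest in part on such genes. The difference between the groups was not tested, and genes that share a cluster are not independent. Among the paternally expressed genes compared these are PEG10 with SGCE, and SNRPN with SNURF, SNHG14 and MKRN3. Among the maternally expressed genes they are UBE3A with ATP10A, and CDKN1C with SLC22A18.

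**Figure D4:**
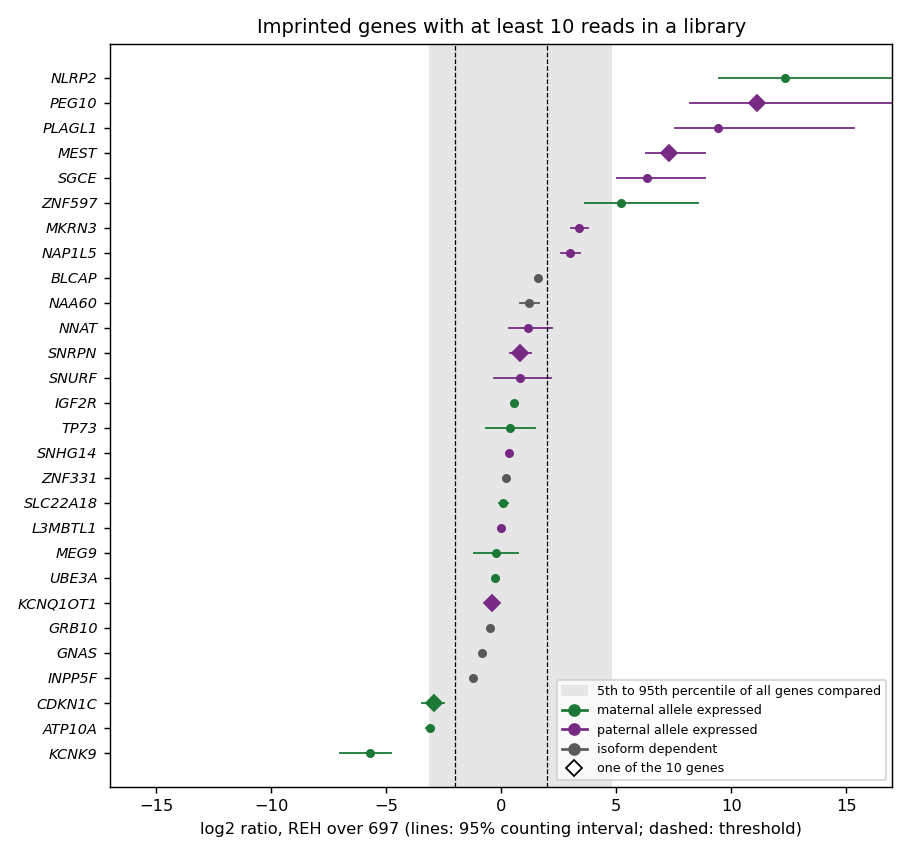
Log2 ratio of REH over 697 for the 28 imprinted genes compared, with 95% counting intervals as lines, diamonds for genes of the 10, colours for the parental copy listed as expressed, dashed lines at the threshold of 2 in size and a grey band from the 5th to the 95th percentile of all genes compared (-3.08 to 4.78). PEG10, MEST, NLRP2, PLAGL1, SGCE and ZNF597 lie above the band, although the interval of ZNF597 crosses its upper edge. KCNK9 lies below the band. ATP10A lies at its lower edge and CDKN1C just inside, and the intervals of both cross that edge.

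Of 13 listed factors that keep imprints through cell division or in the embryo, 12 were matched and 10 were compared, with 1 (10.0%) higher in REH, 0 higher in 697 and a median log2 ratio of -0.21. These counts are close to the shares of all genes, 12.5% and 8.15%. CTCFL, a germ line relative of the insulator protein CTCF, had 189 reads in REH and 2 in 697 (a log2 ratio of 5.80, with an interval of 4.25 to 9.17). CTCF itself, which binds the unmethylated control region between H19 and IGF2, had 233 CPM in REH and 225 CPM in 697. The zinc finger protein gene ZFP57, which protects imprints in the embryo, and DPPA3 were at 0 in both. ZNF445, with a similar role, had 57.7 and 83.2 CPM (a log2 ratio of -0.53). TRIM28, the corepressor both zinc finger proteins recruit, had 577 and 685 CPM, and the maintenance DNA methyltransferase gene DNMT1 had 532 and 601 CPM. The log2 ratios of TRIM28, DNMT1 and ARID4A, which were -0.25, -0.17 and -0.16, changed sign without TMM scaling. The histone methyltransferase gene SETDB1 (0.15), the chromatin remodeller HELLS (-0.65), SMCHD1 (-0.49) and ARID4B (-1.32) lay within the threshold.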

How the data were processed

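Total RNA of REH and 697 cells was sequenced with 1 library per line, and the groups follow the cell line in the labels. The authors deposited the gene counts of STAR as they came, with no normalization, in 3 columns: reads without regard to strand, which were used here, and reads on each strand. Reads that map to several places or are ambiguous between genes are not in the gene counts. The labels describe stranded, ribodepleted libraries and the methods poly(A) selection, but 50.1% and 50.2% of strand-assigned reads lay on the first strand, so genes on opposite strands cannot be told apart. The submitters' processing notes name hg19, whereas the methods name hg38. The annotation release is not given in the sources used here.

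GENCODE 44 (GRCh38) gave symbols, positions and exon lengths for the 51996 of 57773 gene IDs it holds, which may differ from the gene models the authors counted. IPW, PWAR5, PWAR6, COPG2IT1, KLF14, HYMAI, PEG13 and UHRF1 were listed but not matched. Totals were scaled by TMM in edgeR 4.0.16 under R 4.3.3, with factors of 1.11 for REH and 0.899 for 697. A gene was compared if either library held 10 reads of it or more. No test was possible with 1 library per line. The computation was tested on simulated data. Alternatives were unscaled totals, size factors from DESeq2 1.42.0, TMM over protein-coding genes, minimums of 1 and 50 reads, 5 reads added, a log2 ratio of 1, each strand column and, chosen after seeing the data, the sum of the strand columns. Other steps used scipy 1.17.1, pandas 2.3.3, numpy 2.4.6 and matplotlib 3.10.9 under Python 3.11.15.

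The genes named are the 10 imprinted genes, the further imprinted genes of their clusters, those elsewhere past the threshold together with GNAS, IGF2R and PLAGL1, the genes of the other lists, and overlapping or neighbouring genes. These genes and lists were chosen with earlier results of these data known.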

Additional observations from a re-analysis of the deposited data

Results flagged for a closer look

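Reads assigned to ENSG00000270823, a gene annotated antisense to MEST, appeared in the strand columns, which the main comparisons did not use. In REH these columns held 354 reads, 176 on one strand and 178 on the other, against 7 in the column without strand. In 697 they held 0 and 1. REH was also the line with MEST reads, and the exons of the 2 genes overlap. The MEST count in REH was 1386 without strand and 1736 with the strand columns summed. Over all genes in REH, 50.1% of strand-assigned reads lay on the first strand. The even split of these reads therefore cannot tell antisense transcription from MEST RNA. The share of the 354 reads that came from MEST RNA was not tested.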

How the results depend on the processing

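PEG10 and MEST stayed higher in REH, and CDKN1C higher in 697, under each alternative tried. CDKN1C ranged from a log2 ratio of -3.22 to -2.64. With a minimum of 1 read the number of the 10 genes higher in 697 went from 1 to 2, by the addition of PEG3, that of the further imprinted genes went from 2 to 4, and that of all genes from 1560 to 4411, since more genes were compared. The same minimum turned the median log2 ratio of the 10 genes from 0.80 to -0.41. At a log2 ratio of 1, 4293 of all genes were higher in REH and 3336 higher in 697, and with a minimum of 50 reads 1464 were higher in REH. Without TMM scaling each log2 ratio was higher by 0.307 and the median of all genes moved from 0.05 to 0.36. KCNQ1OT1 then had a ratio of -0.10. With 5 reads added the fitted ratio of PEG10 was 7.78, since 697 had 0 reads. No paired analysis was possible because REH and 697 were sequenced once each, and for the same reason no replicate could be left out. Counts under about 10 reads, as for H19, PEG3 and MEST in 697, give levels with wide intervals.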
